A study of Glycine max with 13 samples.

Results

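The sites described here are places in the soybean genome where most clade B auxin response factors (ARFs) of maize had a binding event and a minority of clade A ARFs joined them. The sites were chosen by presence in the lists of events: a site qualified when events of 4 or more of the 6 clade B ARFs and of 1 to 3 of the 6 clade A ARFs chained together within 100 bp. There were 2400 such sites, 3.34% of the 71895 sites that the 12 lists form. Of the 8225 sites where 4 or more clade B ARFs met, they were 29.2% (Wilson 95% interval 28.2% to 30.2%).

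The assay was DAP-seq (DNA affinity purification followed by sequencing), where naked, fragmented genomic DNA is captured by a transcription factor that carries a tag and was produced in vitro. The DNA was extracted from soybean (Glycine max) leaf, and each of the 12 maize ARFs had 1 library and 1 list of events, so no ARF has a replicate. The negative control, GST-HALO without an ARF, was not analysed here. Clade A held ARF4, ARF16, ARF18, ARF27, ARF29 and ARF34, and clade B held ARF7, ARF10, ARF14, ARF25, ARF36 and ARF39. The sample labels do not give the clades, which are those of the published maize ARF phylogeny, taken here as background.

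ARFs are the proteins through which the plant hormone auxin changes transcription. They bind short DNA elements that often occur in pairs, as dimers, through a conserved amino-terminal domain. Clade A ARFs are generally described as activators that auxin releases from Aux/IAA repressors, and clade B ARFs as repressors that can occupy the same elements. DAP-seq removes chromatin and other proteins, so a list reports where the protein bound purified DNA. The sources used here do not name the genome build of the lists, and the sequence and genes under the sites were not analysed here.

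Presence in a list chose the sites, so which ARFs were present is given as a description without a test. A list has events above a threshold of the authors, and its length ran from 1106 events (ARF18) to 35715 (ARF34). The depth of each library is unknown. An ARF without an event may therefore have bound below the threshold of its list.

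On the clade A side, the sites held 1 ARF more often than 2 or 3, but less often than sites with fewer clade B ARFs did. Exactly 1 clade A ARF was present at 1114 of them (46.4%), 2 at 691 (28.8%) and 3 at 595 (24.8%). Of the 35657 sites with 1 to 3 clade A ARFs and fewer than 4 clade B ARFs, 21724 had exactly 1. Most of the 35657, 30863 sites, had no clade B ARF. Just outside the rule, 4173 sites with 4 or more clade B ARFs had no clade A ARF and 605 had 4 of them. On the clade B side the sites divided more evenly, with 4 clade B ARFs at 875 sites, 5 at 824 and 6 at 701. Just outside, 1057 sites had 3 clade B ARFs and 1 to 3 clade A ARFs. Of these, 521 had exactly 1 clade A ARF, against 431 of the 875 with 4 clade B ARFs. The share with exactly 1 thus hardly moved across this edge of the rule.

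On the clade B side, ARF36 and ARF25 were nearly always present and ARF39 often was not. ARF36 had an event at 98.2% of the sites, ARF25 at 95.7%, ARF7 at 88.8%, ARF10 at 82.8% and ARF14 at 82.5%. ARF39, whose list is the shortest of clade B with 4210 events, was present at 44.7%. The sites took a larger share of the short clade B lists than of the long ones. They held 25.5% of the ARF39 list and 20.8% of the ARF14 list, against 10.5% of the ARF36 list and 10.2% of the ARF7 list. ARF10 was present at 70.9% of the clade B-restricted sites, those where 4 or more clade B ARFs and no clade A ARF had an event. It was present at 88.7% of the shared sites, those where each clade had 4 or more ARFs. ARF39 went from 35.5% to 63.0% between the same kinds of site, so for both ARFs the sites with few clade A ARFs lay between the others.

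Among the clade A ARFs, ARF34 and ARF4 joined most often, and ARF27, ARF4 and ARF29 took more of the joins than their share of clade A events. The reference for each ARF was the 35657 sites that also had 1 to 3 clade A ARFs but fewer than 4 clade B ARFs. Of these, 30863 had no clade B ARF. ARF34 joined at 1506 of the 2400 sites (62.8%), below its 75.6% at the reference sites. ARF4 joined at 1224 (51.0%), above its 33.9% there. With 1, 2 and 3 clade B ARFs, its share of the reference sites was already 48.3%, 52.2% and 52.7%. ARF27 joined at 705 (29.4%, against 10.8%) and ARF29 at 324 (13.5%, against 4.2%). ARF16 joined at 515 (21.5%, against 27.3%). ARF18 joined at 7 (0.29%, against 0.126%).

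Read against list length, the order changed. The 4281 joins divided over the clade A lists gave ARF27 1.43 times its share of all 88906 clade A events, ARF4 1.31 times and ARF29 1.25 times. ARF34 had 0.88 times its share, ARF16 0.63 times and ARF18 0.13 times. ARF16 and ARF4 have lists of similar length, 16964 and 19478 events, yet the sites held 3.04% of the ARF16 list and 6.28% of the ARF4 list. The ARF18 list, of 1106 events, had 40.8% of its length at shared sites and 0.63% at the sites described here. With every list cut to its strongest 1106 events, ARF18 joined at 23 of 123 sites. The excess of ARF4 as the only clade A ARF of a site reversed there, among these 123 sites, and the cause was not tested.

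The lone joiner, the clade A ARF of the 1114 sites with exactly 1, was ARF34 or ARF4 at most sites. ARF34 was the lone joiner at 516 sites (46.3%, Wilson 95% interval 43.4% to 49.3%). Of the 21724 sites with exactly 1 clade A ARF and fewer than 4 clade B ARFs, it was the lone one at 66.1%. ARF4 was alone at 390 sites (35%, interval 32.3% to 37.9%, against 25.7%). ARF27 was alone at 147 sites (13.2%, interval 11.3% to 15.3%, against 3.51%), which is 3.76 times its share at the reference sites. ARF29 was alone at 48 sites (4.31%, against 1.72%), or 2.5 times. ARF16 was alone at 13 sites (1.17%, against 2.94%), and ARF18 at 0 of 1114 (against 0.023%), which by the Wilson interval allows up to 0.34%. With only the strongest 1106 events of each list, which leaves 123 sites, the ratio for ARF4 turned to -0.59 on the log2 scale, from 0.44, and ARF18 joined at 23 of the 123. With events whose −log10 q reached the list median, which leaves 1012 sites, the log2 ratio for ARF4 was 0.67. The log2 ratio for ARF27, 1.91, was 0.54 there and 1.30 without ARF34. That for ARF16, -1.33, was -2.20 with merging at 50 bp.

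**Figure D1:**
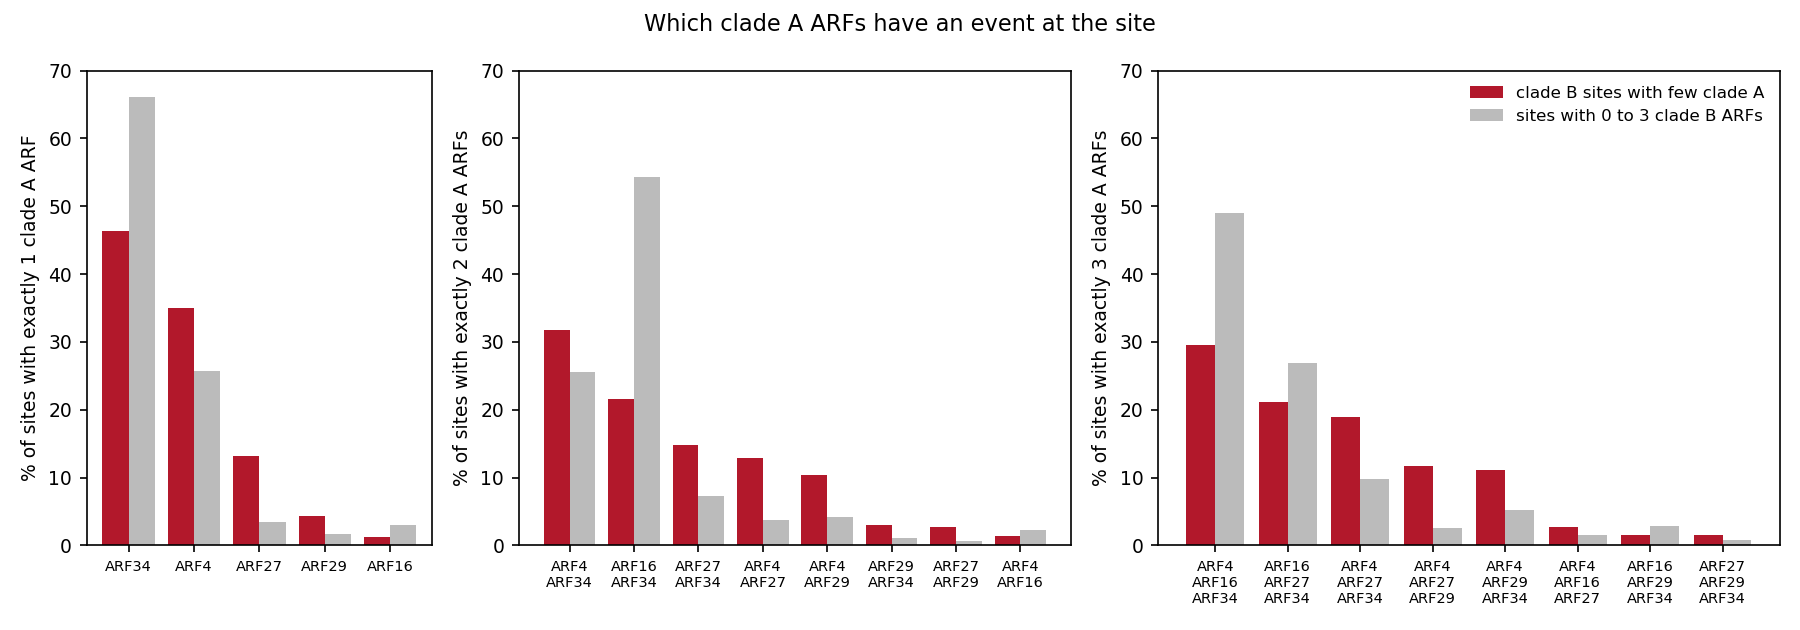
Share of sites held by each combination of clade A ARFs (y axis, percent of sites with exactly 1, 2 or 3 clade A ARFs), for combinations found at 9 or more of the 2400 sites. Red bars are clade B sites with few clade A ARFs and grey bars are sites with 1 to 3 clade A ARFs and fewer than 4 clade B ARFs. The pair of ARF16 and ARF34 falls from 54.2% in grey to 21.6% in red.

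Much of this shift was already present with few clade B ARFs. Where exactly 1 clade A ARF was present, ARF34 was that ARF at 68.4% of 19268 sites without a clade B ARF. Its share was 51.4% with 1 clade B ARF, 43.6% with 2 and 43.8% with 3, and then 45.9%, 45.1% and 48.6% with 4, 5 and 6. ARF27 went from 2.89% without a clade B ARF to 9.98% with 3, and stood at 14.8%, 9.87% and 15.3% with 4, 5 and 6. ARF4 went from 24.1% without a clade B ARF to 36.7%, 40.8% and 39.9% with 1, 2 and 3. It then stood at 34.8%, 37.7% and 31.6% with 4, 5 and 6, so it showed no excess over sites with 2 or 3. The lone joiner at the sites described here therefore resembled that of sites with 2 or 3 clade B ARFs more than that of sites with none. Just across the edge of the rule, ARF27 had an event at 24.2% of the sites with 3 clade B ARFs and 1 to 3 clade A ARFs, and at 28.0% of those with 4.

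**Figure D2:**
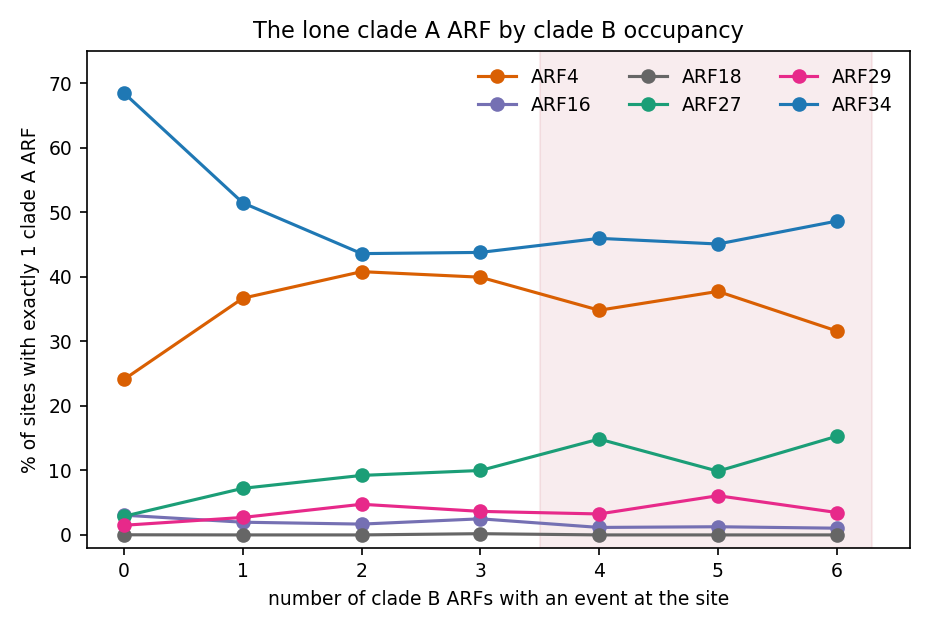
Identity of the lone clade A ARF (y axis, percent of sites with exactly 1 clade A ARF) by the number of clade B ARFs at the site (x axis), 1 line per clade A ARF. The shaded part holds the sites described here, and ARF34 falls from 68.4% to 43.6% between 0 and 2 clade B ARFs.

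Clade A ARFs differed in the clade A partners they joined with. ARF34 was present at 89.3% of the 515 sites of ARF16, and 2.52% of ARF16 joins were alone, against 89.4% and 6.54% of its events at the reference sites. ARF34 and ARF4 were the lone joiner at 34.3% and 31.9% of their sites, against 53.2% and 46.3%. Sites with exactly 1 clade A ARF were also a smaller share here, 1114 of 2400 against 21724 of 35657 reference sites. These drops were not separated from that shift. ARF4 was present at 65.1% of the 324 sites of ARF29 (51.1% at the reference sites) and ARF34 at 32.4% (33.8%). The share of ARF34 beside ARF16 and beside ARF29 was therefore close to the reference.

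Among sites with exactly 2 clade A ARFs, the pair of ARF4 and ARF34 was the most frequent, at 219 sites (31.7%), with 25.6% at the reference sites of the same size. The pair of ARF16 and ARF34 followed with 149 sites (21.6%), where the reference sites had 54.2%. ARF4 with ARF27 made up 12.9% against 3.71%, and ARF4 with ARF29 10.4% against 4.19%. These pairs of ARF4 thus took a larger share here than at the reference sites, and the pair of ARF16 and ARF34 a smaller one. With 3 clade A ARFs, the combination of ARF4, ARF27 and ARF29 made up 11.8% against 2.52%, and that of ARF4, ARF16 and ARF34 29.6% against 49.0%.

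The clade B company differed with the clade A ARF that joined. ARF39 had an event at 60.8% of the 324 sites that ARF29 joined (interval 55.4% to 66.0%) and at 42.2% of the 2076 that it did not (40.1% to 44.3%). ARF10 had an event at 88.6% of the sites that ARF4 joined (86.7% to 90.3%) and at 76.7% of the others (74.2% to 79.0%). ARF7 had an event at 94.9% of the sites that ARF27 joined (93.0% to 96.3%) and at 86.3% of the others (84.6% to 87.9%). Of the 30 pairs of a joining clade A ARF with a clade B ARF, ARF18 left out, these 3 differed the most upward, and they were picked after their values were seen. The widest difference downward was ARF10 at the sites of ARF29, 77.5% against 83.6%.

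Strength, the value the authors gave each event, has no stated common scale, so each event was ranked within its own list and given as a percentile. A weak event falls under the threshold and is absent, so rank is tied to the choice of sites and was not tested. Joining clade A events ranked in the lower to middle part of their lists. The median percentile was 50.1 for ARF4, 43.7 for ARF27, 41.4 for ARF29, 40.9 for ARF34 and 37.8 for ARF16. For ARF18 it was 95.6, over 7 sites. At shared sites the same ARFs had medians of 85.1 (ARF4), 79.8 (ARF27), 74.3 (ARF29), 85.7 (ARF34), 77.5 (ARF16) and 61.1 (ARF18). Apart from ARF18, each clade A ARF was therefore weaker here than at shared sites, and 25% of its events lay below the 19.4th (ARF16) to 27.5th (ARF4) percentile. Against the reference sites with few clade B ARFs the ARFs divided: the median was above the reference for ARF4 (40.2 there), ARF27 (33.6) and ARF29 (30.9), and below it for ARF34 (44.1) and ARF16 (41.5). ARF18 was also above its reference (46.2), over 7 sites.

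In the authors' strength, the joining events began near the lowest value of their lists. ARF4 joined with strengths from 19.2 to 1085 (median 35, the same as over its list). ARF27 ran from 19 to 1108.2 (median 32, list median 34), and ARF29 from 20 to 710 (28.5, list 31). ARF34 ran from 17 to 244 (33, list 37.9), and ARF16 from 18.1 to 483.9 (32.3, list 38). A typical join was thus an ordinary event of its list, and few were among the strong ones: events at or above the 75th percentile made up 18.4% of the ARF4 joins, 15.7% for ARF34, 15.1% for ARF29, 14.8% for ARF27 and 12.4% for ARF16. For the clade B ARFs that share ran from 24.4% (ARF39) to 54.8% (ARF36).

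Clade B events at the same places ranked higher in their lists. Their median percentile was 78.6 for ARF36, 72.2 for ARF7, 71.7 for ARF25, 63.9 for ARF10, 57.1 for ARF14 and 50.3 for ARF39. Each lay between its median at clade B-restricted sites and that at shared sites. For ARF10 the 3 medians were 54.3, 63.9 and 79.4, and for ARF36 they were 75.4, 78.6 and 83.1. At 1871 of the 2400 sites (78%) the mean percentile of the clade A ARFs was below that of the clade B ARFs, with a median difference, A minus B, of -18.7 percentile points. The difference was -23.5 points with 1 clade A ARF, -17.9 with 2 and -10.8 with 3. Of the single ARFs, ARF4 ranked above the clade B mean at 33.6% of its sites and ARF16 at 22.1%, with ARF29, ARF27 and ARF34 between them at 26.5%, 26.0% and 25.9%. At shared sites this median was 0.99, and clade A was lower at 47.5%. ARF18 ranked below the clade B mean at each of its 7 sites, by a median of -1.35 points.

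**Figure D3:**
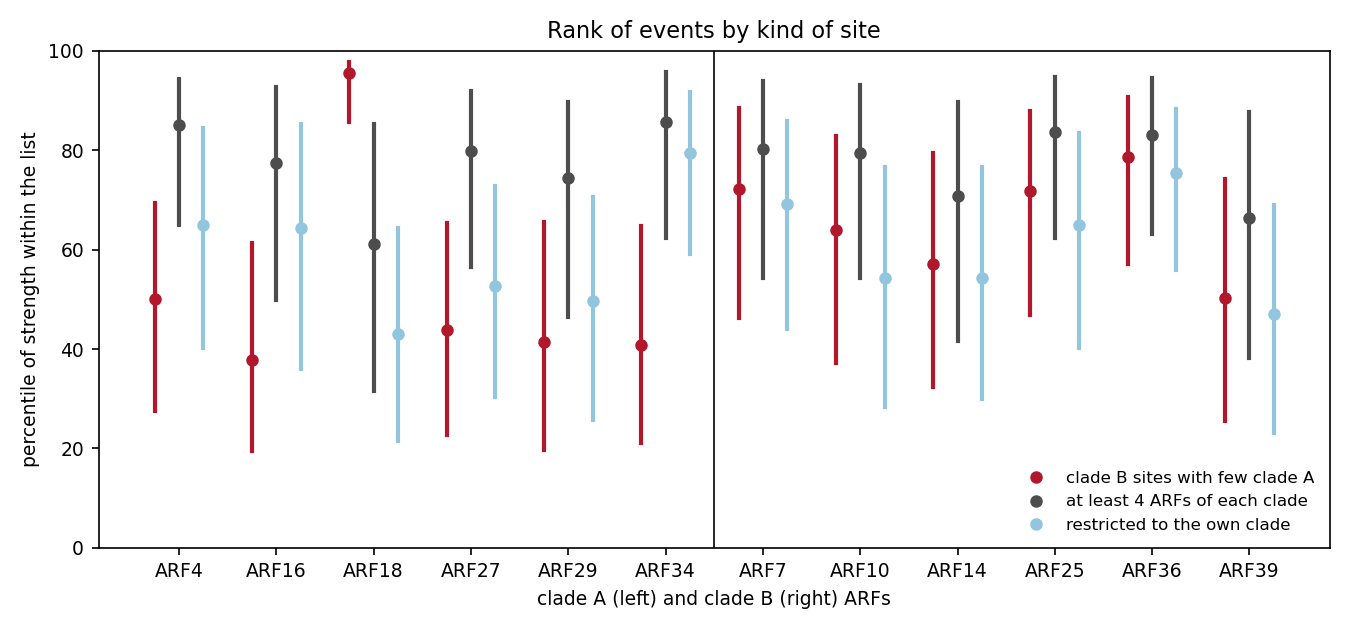
Rank of events (y axis, percentile of strength within the ARF's own list) for the 12 ARFs (x axis) at clade B sites with few clade A ARFs (red), at shared sites (dark grey) and at sites restricted to the ARF's own clade (blue). Points are medians and lines run from the 25th to the 75th percentile over sites. Apart from ARF18, with 7 sites, the red clade A medians lie between 37.8 and 50.1.

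Clade A events ranked higher where more clade A ARFs were present. For ARF34 the median percentile was 31.5 as the lone joiner, 40.9 among 2 and 54.1 among 3. Just outside the rule, at sites with 4 clade A ARFs, it was 73.9. ARF4 ran through 43.5, 50.1 and 58.3 to 71.2, and ARF27 through 26.8, 41.4 and 51.3 to 64.3. ARF29 was the exception among the longer-listed joiners, with 20.1, 35.4 and 52.2 inside the rule and 48.3 just outside it. The clade B medians moved less: ARF36 had 78, 80.4 and 77.9 with 1, 2 and 3 clade A ARFs, and ARF10 had 60.2, 65.4 and 69.8. By the number of clade B ARFs the rank of ARF34 hardly moved, with a median of 45.1 at sites with 3 of them and 42.0 at sites with 4. That of ARF4 was 43.5 and 51.2.

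How close clade A events fell to the clade B events depended on the ARF. The rule chains events within 100 bp, so closeness as such is set by the choice of sites. Offset is the distance from the strongest event of an ARF at a site to the median position of the strongest events of the clade B ARFs there, its own left out. The median offset was 7.75 bp for ARF29, 10.5 bp for ARF27, 14.5 bp for ARF4, 16 bp for ARF16 and 19.5 bp for ARF34. For ARF18 it was 3.5 bp, over 7 sites. Clade B ARFs measured the same way had medians of 7 bp (ARF39), 8 bp (ARF14 and ARF36), 9 bp (ARF10), 10 bp (ARF25) and 12 bp (ARF7). ARF29 and ARF27 thus lay within the range of the clade B ARFs, while ARF4, ARF16 and ARF34 lay above it and ARF18 below.

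Offset could not test a difference between the clades. The rule asks for more clade B than clade A ARFs, and offset is measured from the clade B events. A clade B ARF also has its own event left out of that position. The ARFs of the clades are therefore not interchangeable. The mean of the medians was 12.0 ± 5.85 bp (SD, n = 6 ARFs) in clade A and 9.0 ± 1.79 bp (SD, n = 6 ARFs) in clade B, a difference of 2.96 bp. A permutation test, exact and two-sided, that exchanged ARFs between the clades gave p = 0.27 (Benjamini-Hochberg adjusted over 2 tests 0.44), and 3 of the 6 clade A ARFs lay above every clade B ARF. Because the ARFs are not interchangeable, this p-value decides nothing about the clades. The same holds for the p-values of the alternatives that follow. The p-value also changed when 1 ARF was left out and the sites formed anew. Without ARF7 the difference was 5.94 bp (exact permutation p = 0.019, unadjusted), without ARF14 4.74 bp (exact p = 0.041) and without ARF39 5.11 bp (exact p = 0.041). ARF18 had 2 sites in each case, and also without ARF25, where the difference was 3.09 bp (exact permutation p = 0.31). Without ARF18 it was 4.58 bp (exact permutation p = 0.063), and with the strongest 1106 events of each list 4.83 bp (exact permutation p = 0.0087).

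**Figure D4:**
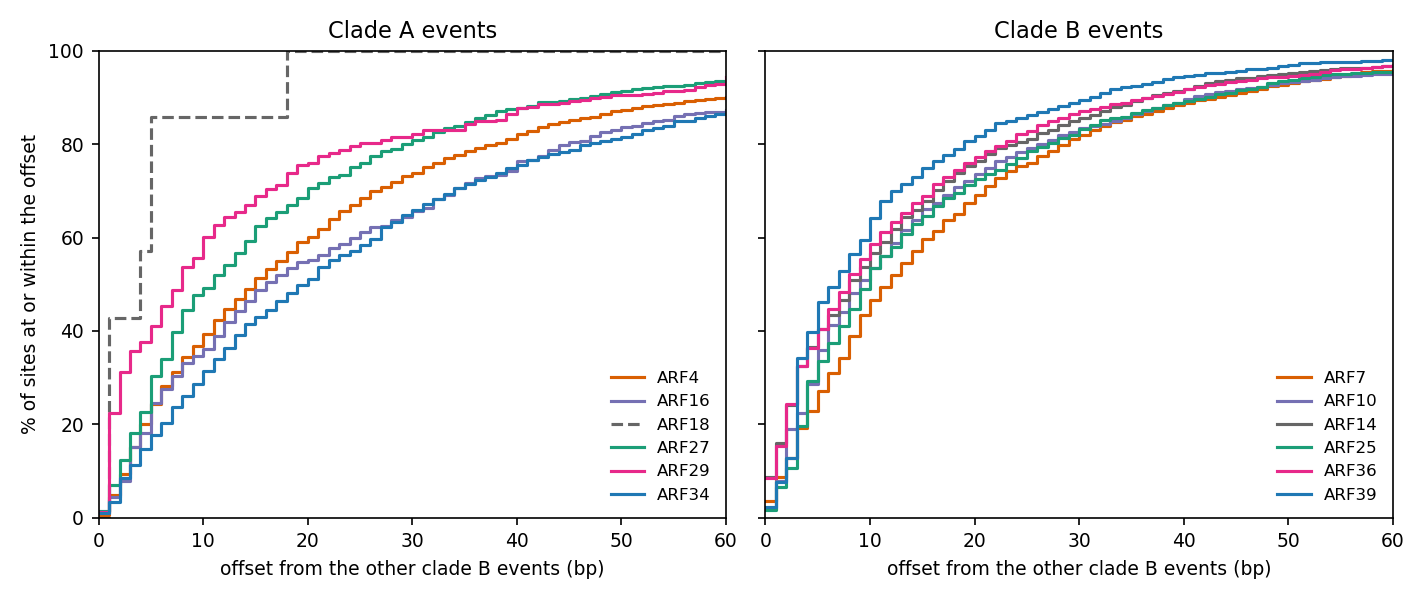
Cumulative share of sites (y axis, percent) at or within a given offset (x axis, whole bp) for clade A ARFs (left) and clade B ARFs (right) at clade B sites with few clade A ARFs. The dashed line is ARF18, with 7 sites. Of the other clade A ARFs, ARF29 has the smallest median (7.75 bp) and ARF34 the largest (19.5 bp).

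Events far from the clade B position were most frequent for ARF16 and ARF34. Events more than 30 bp away made up 34.4% of the ARF16 joins, 34.1% for ARF34, 26.1% for ARF4, 19.0% for ARF27 and 17.9% for ARF29, against 10.5% (ARF39) to 18.1% (ARF7) for clade B ARFs. Events within 5 bp made up 41.0% of the ARF29 joins, against 17.8% for ARF34. An ARF29 event lay within the span of the clade B events of its site in 65.4% of cases, and an ARF34 event in 44.8%. That span had a median of 32 bp. The order of ARF34, ARF4, ARF27 and ARF29 in offset was the same among weak and strong events, while that of ARF16 was not. For events at or below the 25th percentile, the median offset was 22 bp for ARF34, 16 bp for ARF4, 13 bp for ARF27 and 8.75 bp for ARF29, with ARF16 at 17.5 bp, above ARF4. For events above the 75th percentile it was 15 bp for ARF34, 14.5 bp for ARF4, 8.5 bp for ARF27 and 4.5 bp for ARF29, with ARF16 at 12.75 bp, below ARF4. Among the lone joins, ARF16 had a median of 8 bp over its 13 sites, against 15 bp among 2 and 17 bp among 3 clade A ARFs.

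Between shared sites and these sites the offsets of the clade A ARFs moved in both directions. The number of clade A ARFs separates these kinds of site and goes with rank, and offset was smaller among strong events. The comparison is therefore tied to the rule, and its test cannot decide whether the ARFs lie differently. The p-value also depended on which events were kept. From shared sites to the sites described here, the median went from 13 to 19.5 bp for ARF34, from 11.5 to 16 bp for ARF16 and from 12 to 14.5 bp for ARF4. It went from 11 to 10.5 bp for ARF27, from 9.5 to 7.75 bp for ARF29 and from 7 to 3.5 bp for ARF18. Offsets were larger for 3 of the 6 ARFs and smaller for the other 3. The mean difference was 1.29 bp (two-sided exact sign-flip permutation test over 64 patterns, p = 0.44, adjusted over 2 tests 0.44; the smallest p this design allows is 0.031). With the strongest 1106 events of each list it was 3.75 bp (exact permutation p = 0.031), and leaving out 1 ARF gave 0.46 (without ARF25) to 3.38 bp (without ARF14). With ARF18 left out of the mean and the sites unchanged, it was 2.25 bp (exact permutation p = 0.25). That alternative was not planned.

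Single pairs of ARFs had preferred distances of a few base pairs. In the 30 pairs of a clade A with a clade B ARF that shared at least 50 of the sites, the most frequent distance between their events ran from 1 to 8 bp and took 3.88% to 33.5% of the shared sites. ARF29 stood 2 bp from ARF39 at 66 of 197 shared sites (33.5%), 1 bp from ARF14 at 81 of 285 (28.4%) and 1 bp from ARF36 at 80 of 306 (26.1%). ARF27 stood 8 bp from ARF25 at 69 of 675 (10.2%) and 8 bp from ARF39 at 41 of 336 (12.2%). ARF34 stood 5 bp from ARF25 at 169 of 1441 (11.7%), and ARF16 stood 3 bp from ARF36 at 74 of 507 (14.6%). Several pairs had the same most frequent distance, and it was short also for ARFs with a large median offset. At the shared sites, which the rule leaves out, the most frequent distance was the same in 25 of the 30 pairs and within 1 bp in 28. The 2 further pairs, ARF34 with ARF14 and with ARF39, each moved by 3 bp.

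**Figure D5:**
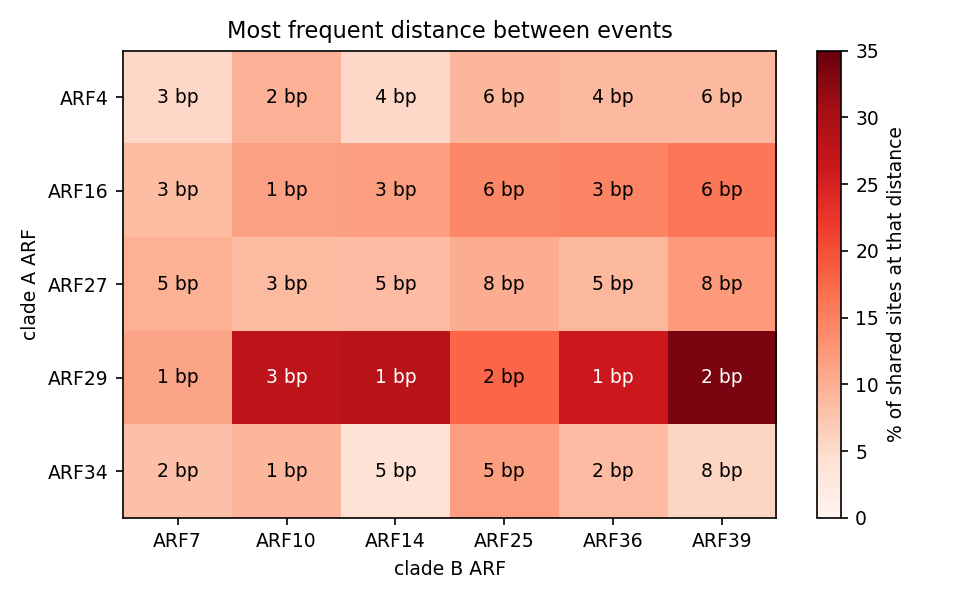
Most frequent distance in bp between the events of a clade A ARF (rows) and a clade B ARF (columns) at clade B sites with few clade A ARFs, with the colour giving the percent of their shared sites at that distance. ARF18 is left out for its 7 sites, and ARF29 has the highest shares, up to 33.5% with ARF39.

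The sites were wider than clade B-restricted sites and held repeated events of a clade B ARF more often. From the first to the last event they spanned a median of 47 bp (25th to 75th percentile 28 to 78 bp), against 32 bp for clade B-restricted and 54 bp for shared sites, which hold different numbers of events. At 14.8% of them some clade B ARF had more than 1 event (interval 13.5% to 16.3%), against 10.1% of clade B-restricted sites (9.21% to 11.0%) and 21.3% of shared sites (19.4% to 23.3%). Repeated events of a clade A ARF occurred at 2.21%, against 21.1% of shared sites, which by definition hold more clade A ARFs. These differences were not tested.

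Along the chromosomes the sites again lay between the neighbouring kinds. The middle of the chromosome, from 25% to 75% of the span covered by events, held 43.3% of them (interval 41.3% to 45.3%). It held 50.3% of clade B-restricted sites (48.8% to 51.8%) and 34.3% of shared sites (32.1% to 36.6%). The order was alike from the clade A side. Of sites with 4 or more clade A ARFs, the middle held 46.4% without a clade B ARF and 40.6% with 1 to 3. Among the sites described here the share was 47.3% with 1 clade A ARF (44.4% to 50.2%). It was 42.8% with 2 (39.2% to 46.6%) and 36.3% with 3 (32.5% to 40.2%). Each of the 20 chromosomes had some, from 90 (chromosome 16) to 157 (chromosome 19). Their share among sites of 4 or more clade B ARFs ran from 25.6% (chromosome 13) to 32.1% (chromosome 11). Another of the 2400 sites lay within 1000 bp for 30 of them, so nearly all stand as separate places.

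Named sites are given by the chromosome and the first and last event position in the lists. The 5 with the most ARFs, ranked by mean percentile, each had all 6 clade B ARFs and 3 clade A ARFs. The first lay on chromosome 9 at 39723278 to 39723282 and was joined by ARF16, ARF18 and ARF27. All 9 events there fell within 4 bp, and every percentile was 99.5 or above. Strength there was 483.9 for ARF16, 355.8 for ARF18 and 1108.2 for ARF27, and ran from 1015.1 (ARF14) to 5409.8 (ARF36) in clade B. ARF34, ARF4 and ARF29 had no event within the site, although ARF34 has the longest list. The next lay on chromosome 5 at 4588861 to 4588877 and was joined by ARF4, ARF27 and ARF29, with every percentile at 98.8 or above. Strength there was 805 for ARF4, 816 for ARF27 and 710 for ARF29, and in clade B it ran from 339.2 (ARF14) to 858 (ARF7). The 3 remaining were on chromosome 9 at 35194417 to 35194594 (joined by ARF4, ARF16 and ARF34), chromosome 1 at 44091085 to 44091118 (ARF16, ARF27 and ARF34) and chromosome 11 at 28069551 to 28069602 (ARF4, ARF29 and ARF34). At the last, the clade B ARFs had percentiles from 98.9 to 99.9 and the joiners 75.8, 80.9 and 82.1, so the clades did not overlap there.

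The highest-ranked lone joins differed in how strong the clade B events were. ARF27 stood alone on chromosome 18 at 39080609 to 39080722 with a percentile of 98.4, beside 5 clade B ARFs at 97.1 to 99.9. ARF34 stood alone on chromosome 18 at 16581719 to 16581743 at 94.6, with clade B ARFs at a median of 92.3 and ARF39 the lowest at a strength of 31.3. ARF4 stood alone on chromosome 19 at 23992472 to 23992568 at 94.0, with clade B ARFs at 45.7 to 84.3. At this last site ARF4 ranked above every clade B ARF. The best lone joins of ARF29 (chromosome 10, 41144364 to 41144456) and ARF16 (chromosome 1, 16218441 to 16218452) reached 70.6 and 61.6.

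Some sites went against the general order of rank. Clade A exceeded clade B the most on chromosome 7 at 14160398 to 14160422, where ARF29 stood at 95.2, ARF4 at 93.2 and ARF27 at 78.8 and the 5 clade B ARFs at 7.83 to 48.0. In strength, ARF29 had 75.2, ARF4 69.9 and ARF27 49.9, and the clade B ARFs 20.6 (ARF25) to 37.3 (ARF14). The next 4 were on chromosome 17 at 10169154 to 10169190 (ARF34), chromosome 13 at 16333838 to 16333894 (ARF4 and ARF34), chromosome 6 at 15619581 to 15619627 (ARF4) and chromosome 11 at 14513074 to 14513100 (ARF34), with differences of 57.8, 52.6, 49.1 and 47.7 points. In the other direction, ARF4 stood at 7.04 on chromosome 7 at 17376687 to 17376785, beside 6 clade B ARFs at 79.0 to 97.5. Its strength was 22, and those of clade B ran from 51 (ARF10) to 194 (ARF14). ARF29 at 4.12 and ARF4 at 15.1 stood beside clade B ARFs at 79.9 to 99.5 on chromosome 1 at 18031157 to 18031175. ARF27 stood at 1.1 on chromosome 6 at 39889906 to 39889965, beside clade B ARFs with a median of 98.1, of which ARF39 was also low at 7.29. The 2 others of this kind lay on chromosome 2 at 46224637 to 46224698 and chromosome 7 at 4056304 to 4056350. At 243 of the 2400 sites clade A was lower by more than 50 points, and at 87 it was higher by more than 25.

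The 7 ARF18 sites had a makeup of their own. ARF7, ARF14, ARF25 and ARF39 were present at each of the 7, while ARF36, present at 98.2% of all the sites, was present at 1, ARF10 at 2, and ARF4 and ARF34 at none. ARF18 stood between 74.4 and 99.5 in its list at these sites. At chromosome 2, 39247204 to 39247210, for example, it stood at 95.6, ARF27 at 99.5, ARF25 at 99.3 and ARF14 at 98.1. The lists of ARF36 and ARF34 had no event there, although they are the longest of their clades. At each of the 7 the deposited −log10 p of the ARF18 event was under 0.95 of its strength times log10(2). That product is the −log10 p of as many reads with none against them in a binomial test at even odds, and which test the authors used is not stated. The same held for 53.9% of ARF18 events at shared sites. For the other clade A ARFs at the sites described here it held for 40.7% (ARF29) to 50.9% (ARF16) of events, and the part of this measure in the joins was not tested. Of the 7 sites, 2 lie side by side on chromosome 9, at 39723278 to 39723282 and 39723432 to 39723545.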

How the data were processed

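The study has 13 samples, 12 maize ARF libraries on soybean leaf DNA and 1 control library of the tag alone, which was not analysed here. Reads were handled with Bowtie2 and Trimmomatic 0.36, per the submitters' processing notes. The event caller GEM appears in titles of deposited lists, while its settings, any filters and the build are not stated. The authors deposited 1 list per sample, with windows of 201 bp, an event at offset 100, a strength (signal, 17 to 20864, scale not stated) and −log10 p and −log10 q values capped at 999, with −log10 q of 5 or more.

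Event positions were written 1-based, pooled over the 12 lists and chained per chromosome by single linkage within 100 bp. Where an ARF had several events at a site, the strongest was used. Lists were compared by the percentile of strength within a list (ties averaged). Strengths printed are the authors' values on no stated common scale and were not tested between lists, and strength times log10(2) was set only beside the −log10 p of the same event. Intervals are Wilson 95% intervals and cover counting error only, and depth is unknown. Tests were exact permutation tests with the ARF as unit, on medians over sites. The p-values thus set a difference against the spread between single libraries. Code was tested on simulated data. Named sites were the 5 with the most ARFs, the best lone join of each clade A ARF (ARF18 had none), and the 5 with the most positive and the 5 with the most negative difference in mean percentile between the clades. The sites, the clades and the lists were chosen with earlier results of these data known. The comparisons by number of clade B ARFs, most frequent distances, chromosome position and p against strength were chosen after seeing the data. Alternatives were merging at 50 and 200 bp, keeping events whose −log10 q reached the list median, keeping the top 1106 events per list, a stricter rule, leaving out each ARF, and 3 other ways to measure offset. Software was scipy 1.17.1, pandas 2.3.3 and numpy 2.4.6 under Python 3.11.15, with matplotlib 3.10.9 for plots.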

Additional observations from a re-analysis of the deposited data

Results flagged for a closer look

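Among the 6 ARFs of a clade, a value was singled out when its gap to the next exceeded Dixon's 95% critical value as a share of the whole range, for 6 measures in each clade. Chance singles out about 1 in 20 such groups, and 3 of the 12 groups had a value of this kind. ARF39 was present at 44.7% of the sites, far below the other clade B ARFs (82.5% to 98.2%), and its list is the shortest of clade B. ARF18 had a median percentile of 95.6 at the sites, against 37.8 to 50.1 for the other clade A ARFs. The share of its joins within 5 bp of the clade B position was 85.7%, against 17.8% to 41.0%. Both ARF18 values rest on 7 sites. Presence chose the sites and rank is tied to that choice, so the values of ARF39 and of ARF18 in rank are descriptions and support nothing.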

How the results depend on the processing

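The number of sites, 2400, was 2258 with merging at 50 bp and 2467 at 200 bp. It was 1012 with events whose −log10 q reached the list median, 123 with the strongest 1106 events of each list and 1137 with at least 5 clade B and 1 to 2 clade A ARFs. It was 1381 without events whose −log10 p was under 0.95 of strength times log10(2), an alternative chosen after seeing the data. These alternatives keep fewer events or ask for more ARFs. Leaving out 1 ARF gave 1559 (without ARF36) to 2915 (without ARF16). The clade difference in offset, 2.96 bp, was 4.83 bp with the strongest 1106 events of each list (exact permutation p = 0.0087), and ran from 2.38 to 5.94 bp when 1 ARF was left out. The difference between these and shared sites, 1.29 bp, was 3.75 bp with 1106 events (exact permutation p = 0.031), and ran from 0.46 to 3.38 bp when 1 ARF was left out. The p-value for the clade difference decides nothing about the clades, because the rule and the offset treat them differently. The p-value for the difference from shared sites is tied to the rule through rank. Why the p-values were lower with 1106 events was not tested. The log2 ratio of lone joins to the reference kept its direction in 79 of 80 values over 5 clade A ARFs. The exception was ARF4 with 1106 events, -0.59 against 0.44, and the cause was not tested. Sizes moved more: ARF27 ran down to 0.54 from 1.91 with 1106 events, and ARF16 to -2.20 from -1.33 at 50 bp. No paired analysis was possible because each ARF has 1 library and no replicate number pairs the samples (the second offset test pairs by ARF). Unknown depth limits each statement that an ARF is absent from a site.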

Other observations

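The events of single ARFs had an order along the DNA at sites that were given a direction. At 391 of the 2400 sites the ARF25 event lay 3 or 4 bp from the ARF36 event, and these sites were turned so that ARF25 lay on the positive side of ARF36. Measured from ARF36, ARF39 was most often at 3 bp (92 of 207 sites, 44.4%), ARF29 at 1 bp (35 of 66, 53.0%), and ARF14 (171 of 342, 50%) and ARF7 (83 of 341, 24.3%) at 0 bp. On the other side, ARF10 was most often at -2 bp (102 of 320, 31.9%), ARF34 at -2 bp (43 of 244, 17.6%), ARF16 at -3 bp (22 of 75, 29.3%), ARF4 at -3 bp (21 of 185, 11.4%) and ARF27 at -5 bp (26 of 110, 23.6%). Of the ARF29 events within 15 bp of ARF36, 76.8% lay on the ARF25 side, against 45.0% for ARF4, 36.6% for ARF34, 33.3% for ARF27 and 27.3% for ARF16. At the 281 shared sites turned in the same way, the most frequent position was the same for 9 of 9 ARFs. This measure was chosen after seeing the data and has no test.

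Beyond the merging distance, 2.2% of the 4173 clade B-restricted sites had a clade A event within 200 bp and 5.85% within 500 bp. No other positions were compared, so these shares cannot be called low or high.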
